A study of Mus musculus with 32 samples.

Results

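The 9 genes described here pattern or mark the ventral midline and the midbrain of the embryo: Shh, Corin, Ferd3l, Lmx1a, Lmx1b, Foxa1, En1, En2 and Nr4a2. They were matched by symbol to the Entrez identifiers of the deposited tables, and all 9 were found among 20612 genes listed in any library. Shh, Corin and Ferd3l were chosen by their measured rise with bisphenols, so their differences between bisphenols and the solvent are given as description, with no test. The other 6 were tested.

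RNA was sequenced from J1 mouse embryonic stem cells (ESCs, strain 129S4/SvJae) and from their differentiated progeny, at 8 stages with 4 treatments each and 1 library per combination. The bisphenols were A (BPA), F (BPF) and S (BPS), each at 100 nM, and the control was their solvent, dimethyl sulfoxide (DMSO). The stages were ESCs at day 0, embryoid bodies (EBs, floating cell aggregates) at days 4, 6, 9, 12 and 20, EBs at day 8 that had received retinoic acid for 4 days (RA EBs), and day 10 cultures of neural progenitor cells (NPCs). The global branch means EBs of days 6 to 20, and RA EBs with NPCs the neural branch. All cultures came from 1 cell line, and the labels name no transgene or deletion.

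The floor plate is the strip of cells along the ventral midline of the neural tube. It receives hedgehog signal from the notochord, then makes Shh itself, and in the midbrain its cells give rise to dopaminergic neurons. At the border of midbrain and hindbrain, the isthmus, engrailed and Pax genes set the territory in which those neurons form. Roof plate genes mark the opposite, dorsal midline.

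Of the 9 members, 7 had an entry in the RefSeq promoter table of build GRCm38.p6, and the 250 bases before the annotated start were searched. The windows of Ferd3l, Corin and Foxa1 are shown because these genes had the largest log2 differences between bisphenols and DMSO of the 7, in EBs of days 6 to 20. Ferd3l lies on the plus strand (chr12:33928175-33928424), Corin on the minus strand (chr5:72504541-72504790) and Foxa1 on the minus strand (chr12:57546112-57546361). All are written 5′ to 3′ in the direction of the gene, with the forkhead match described next in capitals and no such match in the windows of Ferd3l and Corin.

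Ferd3l: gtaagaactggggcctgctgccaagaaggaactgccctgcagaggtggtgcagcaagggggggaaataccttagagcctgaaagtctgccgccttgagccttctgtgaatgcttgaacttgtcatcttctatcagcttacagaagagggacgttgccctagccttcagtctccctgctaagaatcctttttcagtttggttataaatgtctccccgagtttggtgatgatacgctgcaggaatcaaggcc

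Corin: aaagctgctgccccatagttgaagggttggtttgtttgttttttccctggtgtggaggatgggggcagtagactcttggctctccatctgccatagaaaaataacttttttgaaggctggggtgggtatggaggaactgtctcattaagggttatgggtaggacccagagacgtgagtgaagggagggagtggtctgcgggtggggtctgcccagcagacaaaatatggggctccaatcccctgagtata

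Foxa1: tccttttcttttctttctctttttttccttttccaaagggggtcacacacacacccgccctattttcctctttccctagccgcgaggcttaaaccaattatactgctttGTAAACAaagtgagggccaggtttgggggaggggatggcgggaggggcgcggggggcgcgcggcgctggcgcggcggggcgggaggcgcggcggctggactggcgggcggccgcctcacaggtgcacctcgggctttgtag

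On both strands, the forkhead motif TGTTTNC was found once in the Foxa1 window, 141 bases before the start as its reverse complement, and once in that of Nr4a2. It was absent from the windows of Ferd3l, Corin, Lmx1a, Lmx1b and En1. Of the windows of 27025 genes, 17.9% held it. The GLI motif GACCACCCA (0.211% of windows), the homeodomain motif TAATTA (4.9%) and the nuclear receptor motif AAAGGTCA (1.31%) matched none of the 7. The windows of Foxa1 and Lmx1a lie within the annotated spans of these genes given below, downstream of the outermost start. That of Lmx1b overlaps its span in part. The CpG count was 2 in the Corin window and 4 in that of Ferd3l, against 21 for Foxa1, 44 for Nr4a2 and a median of 6 over all windows.

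Libraries held 9574833 to 11070149 expected counts (reads assigned to genes as estimates) and listed 16326 to 17839 genes. Levels are given as FPKM, reads scaled by gene length and library total, and a gene not listed in a library was set to 0. Log2 changes are edgeR estimates ± SE. Calls needed an adjusted p (Benjamini-Hochberg, over all genes) under 0.05, and those between stages in addition a change of at least 1 on the log2 scale. The labels give no replicates, so p-values measure the spread between these libraries, and the labels do not say whether successive stages came from the same cultures. In bulk RNA, fewer cells of a type and less RNA per cell cannot be told apart.

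**Figure D1:**
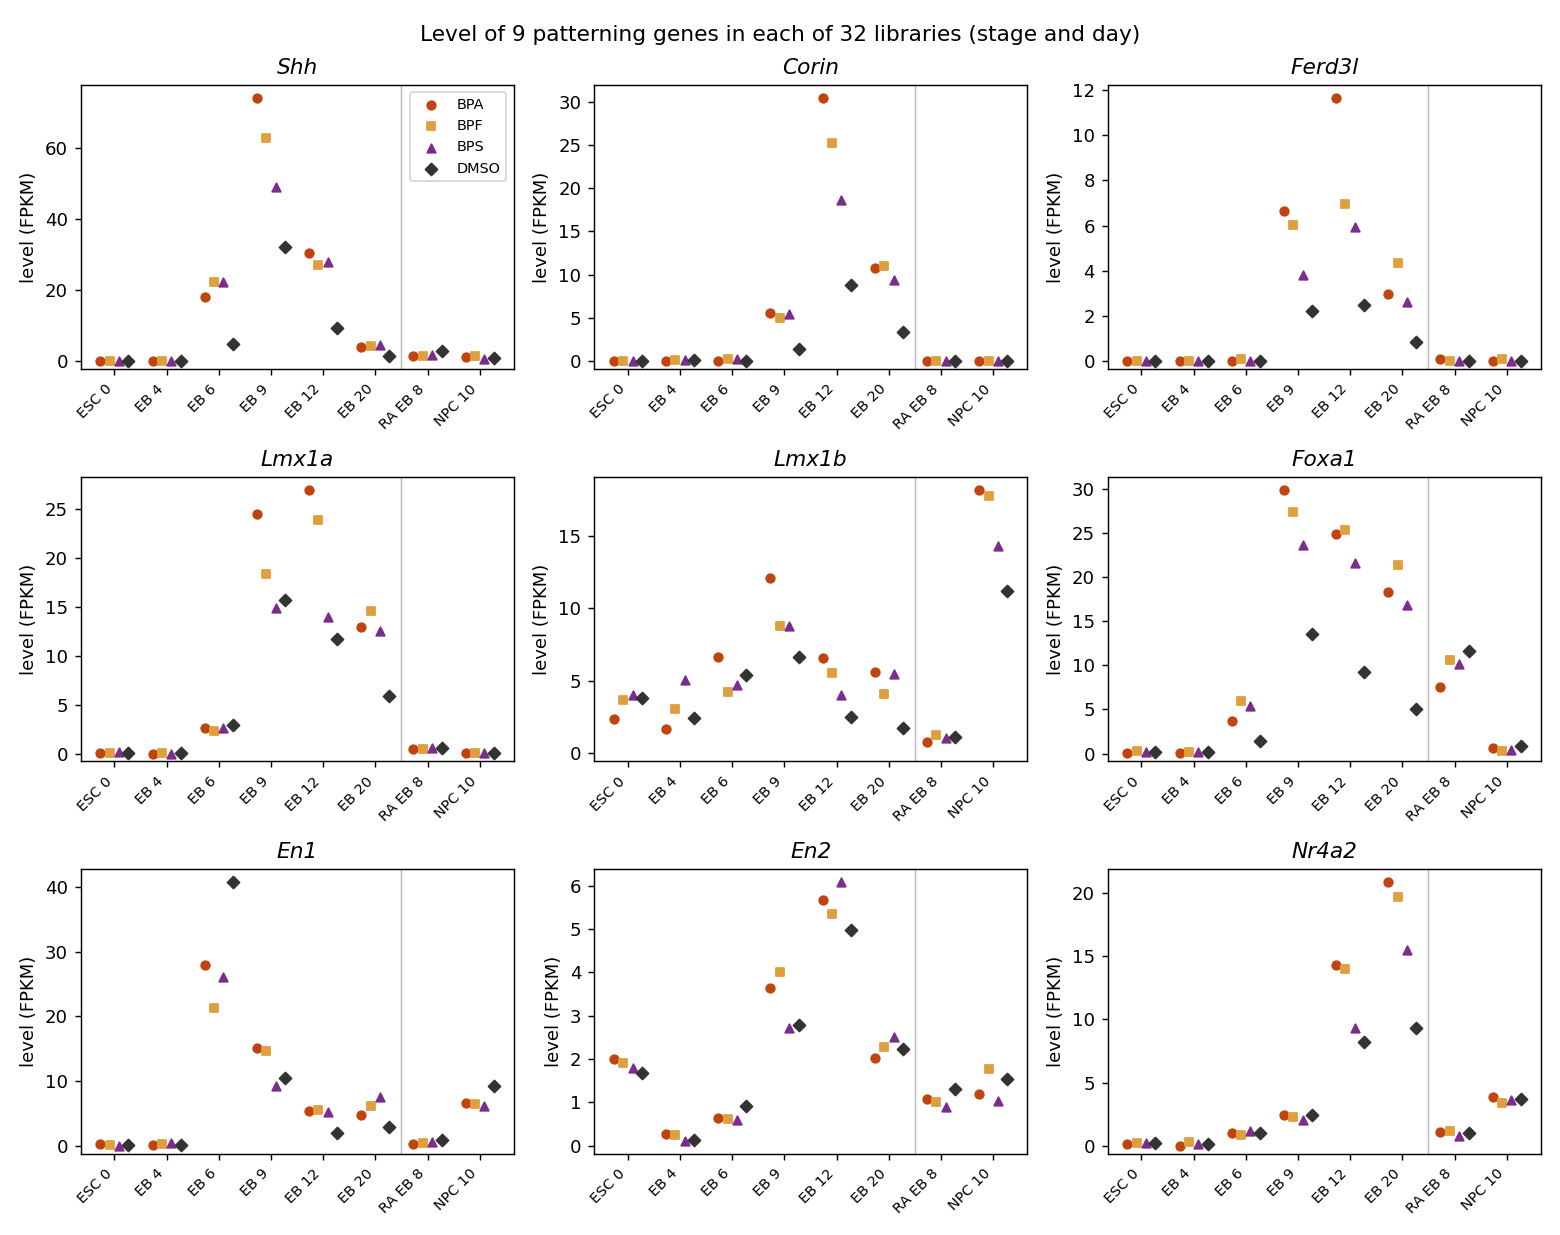
Level in FPKM (linear axis, one scale per gene) of the 9 genes in every library, by stage and day, with 1 point per treatment. Shh, Corin, Ferd3l, Lmx1a and Foxa1 were highest in EBs of day 9 or 12, En1 in EBs of day 6 and Lmx1b in NPCs of day 10.

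The secreted ligand Shh was nearly silent in ESCs and in EBs of day 4, where at most 0.1 FPKM was listed, and appeared at EB day 6. The gene (Entrez 20423) lies at chr5:28456840-28467101 in GRCm38. On EB day 6 its level was 18.1, 22.4 and 22.3 FPKM in the BPA, BPF and BPS libraries, against 4.74 FPKM in DMSO. It reached 74.0, 62.8 and 49.1 FPKM with BPA, BPF and BPS at EB day 9, against 32.1 FPKM in DMSO. Every bisphenol library was thus above the DMSO library of its day. By EB day 12 the levels were 30.4, 27.1 and 28.0 FPKM with the bisphenols and 9.5 FPKM in DMSO. At EB day 20 they were 4.12, 4.22 and 4.72 FPKM, against 1.49 FPKM. The order turned in RA EBs, where Shh stood at 1.54, 1.63 and 1.85 FPKM with BPA, BPF and BPS and at 2.99 FPKM in DMSO. In NPCs the groups overlapped, with 1.35, 1.36 and 0.69 FPKM in the bisphenol libraries and 0.98 FPKM in DMSO.

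Corin, a membrane serine protease used as a marker of the midbrain floor plate, came on later than Shh. It lies at chr5:72299948-72504540 (Entrez 53419). Its levels at EB day 9 were 5.55, 5.05 and 5.47 FPKM with BPA, BPF and BPS, against 1.47 FPKM in DMSO. Corin peaked at EB day 12, at 30.4, 25.2 and 18.6 FPKM, against 8.83 FPKM in DMSO. By EB day 20 the bisphenol libraries held 10.7, 11.04 and 9.43 FPKM and the DMSO library 3.41 FPKM. The groups did not overlap on any of these days. Corin was at 0.23 FPKM or less in every library of EB day 6, and in RA EBs and NPCs at 0.08 FPKM or less.

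Ferd3l, a basic helix-loop-helix factor of the floor plate, was confined in these libraries to EBs of days 9 to 20, apart from single reads elsewhere. It is a short gene at chr12:33928425-33929310 (Entrez 114712). Ferd3l at EB day 9 stood at 6.62, 6.01 and 3.81 FPKM with BPA, BPF and BPS, against 2.24 FPKM in DMSO. Its levels at EB day 12 were 11.6, 6.93 and 5.94 FPKM, against 2.51 FPKM in DMSO. At EB day 20 it was at 2.97, 4.34 and 2.61 FPKM, against 0.85 FPKM in DMSO. The groups did not overlap on these 3 days. The DMSO values rest on 21, 22 and 7 counts. In RA EBs and in NPCs a single count was found over the 4 libraries of each.

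Foxa1, a forkhead factor of the floor plate and of dopaminergic progenitors that endoderm also expresses, rose with bisphenols over EB days 6 to 20. It lies at chr12:57540628-57548029 (Entrez 15375). Foxa1 at EB day 6 stood at 3.70, 5.90 and 5.33 FPKM with BPA, BPF and BPS, against 1.39 FPKM in DMSO. Its levels at EB day 9 were 29.8, 27.4 and 23.7 FPKM, against 13.6 FPKM in DMSO. The bisphenol libraries averaged 3.58 times the DMSO level at EB day 6 and 3.75 times at EB day 20. On EB day 20 the levels were 18.3, 21.4 and 16.9 FPKM with BPA, BPF and BPS, against 5.02 FPKM in DMSO. They were 24.9, 25.3 and 21.6 FPKM at EB day 12, against 9.19 FPKM in DMSO. Every bisphenol library exceeded its DMSO library on all 4 days. In the neural branch the order was the opposite: 7.53, 10.6 and 10.2 FPKM in RA EBs with BPA, BPF and BPS, against 11.6 FPKM in DMSO. NPCs held 0.59, 0.25 and 0.37 FPKM with the bisphenols and 0.84 FPKM in DMSO. These NPC values rest on few reads, with 19, 8 and 12 counts for BPA, BPF and BPS and 27 for DMSO.

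Lmx1a, a LIM homeodomain factor of dopaminergic progenitors and of the roof plate, separated the treatments with bisphenols above DMSO at the later days only. It lies at chr1:167688230-167848741 (Entrez 110648). Lmx1a at EB day 6 stood at 2.59, 2.34 and 2.64 FPKM with BPA, BPF and BPS and at 2.96 FPKM in DMSO. At EB day 9 the groups overlapped, with 24.4, 18.3 and 14.8 FPKM in the bisphenol libraries and 15.7 FPKM in DMSO. Lmx1a at EB day 12 stood at 26.9, 23.9 and 14.0 FPKM, against 11.7 FPKM in DMSO. All bisphenol libraries were above DMSO there and again at EB day 20, where they held 12.9, 14.6 and 12.6 FPKM against 5.91 FPKM. RA EBs held 0.44, 0.43 and 0.59 FPKM with BPA, BPF and BPS and 0.55 FPKM in DMSO, and NPCs 0.06, 0.03 and 0.03 FPKM with bisphenols and 0.09 FPKM in DMSO.

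Lmx1b, the related LIM homeodomain factor of dopaminergic and serotonergic precursors and of the isthmus, was the only member present at every stage at 0.76 FPKM or more in each library. It lies at chr2:33560965-33641208 (Entrez 16917). At EB day 9 it was at 12.1, 8.79 and 8.77 FPKM with BPA, BPF and BPS, against 6.68 FPKM in DMSO. Its levels at EB day 12 were 6.57, 5.55 and 4.02 FPKM, against 2.54 FPKM in DMSO. At EB day 20 it was at 5.63, 4.12 and 5.45 FPKM, against 1.74 FPKM in DMSO. The groups were separate on these 3 days and also in NPCs, where the levels were 18.2, 17.8 and 14.3 FPKM with BPA, BPF and BPS and 11.2 FPKM in DMSO. They overlapped at EB day 6, at 6.68, 4.25 and 4.69 FPKM with bisphenols and 5.39 FPKM in DMSO, and in RA EBs, at 0.76, 1.29 and 1.05 FPKM with bisphenols and 1.13 FPKM in DMSO. In ESCs Lmx1b was at 2.40, 3.72 and 4.04 FPKM with BPA, BPF and BPS and at 3.85 FPKM in DMSO.

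En1, the engrailed homeodomain factor of the midbrain and anterior hindbrain, changed its order between days. It lies at chr1:120602487-120607991 (Entrez 13798). En1 peaked at EB day 6, at 28.0, 21.2 and 26.1 FPKM with BPA, BPF and BPS and at 40.7 FPKM in DMSO. By EB day 12 it was at 5.41, 5.45 and 5.24 FPKM with bisphenols, against 1.96 FPKM in DMSO. All bisphenol libraries were thus below DMSO at EB day 6 and above it at EB day 12. They were also above it at EB day 20, at 4.77, 6.09 and 7.48 FPKM against 2.82 FPKM. At EB day 9 the groups overlapped, with 15.2, 14.6 and 9.22 FPKM with bisphenols and 10.4 FPKM in DMSO. Below DMSO again were the bisphenol libraries of RA EBs, at 0.32, 0.39 and 0.56 FPKM against 0.95 FPKM, and of NPCs, at 6.63, 6.43 and 6.14 FPKM against 9.20 FPKM.

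En2, the second engrailed gene, stayed at 6.08 FPKM or less in every library and differed little between treatments. Its levels at EB day 12 were 5.67, 5.35 and 6.08 FPKM with BPA, BPF and BPS, against 4.98 FPKM in DMSO. At EB day 20 the groups overlapped, with 2.02, 2.28 and 2.50 FPKM with bisphenols and 2.24 FPKM in DMSO. At EB day 6 it was at 0.64, 0.62 and 0.60 FPKM with bisphenols and 0.91 FPKM in DMSO, the reverse order of EB day 12. Like Lmx1b, and unlike Shh, Corin, Ferd3l and Foxa1, it was already expressed in ESCs. Its levels there were 2.0, 1.91 and 1.79 FPKM with BPA, BPF and BPS and 1.67 FPKM in DMSO. En2 lies at chr5:28165696-28172190 (Entrez 13799), on the same chromosome as Shh and 285 kb from it.

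Nr4a2 (Nurr1), a nuclear receptor needed for the dopaminergic phenotype, was the only member with its highest mean level at EB day 20. Its levels there overlapped with those of EB day 12. It lies at chr2:57106830-57124003 (Entrez 18227). Nr4a2 at EB day 12 stood at 14.3, 14.0 and 9.29 FPKM with BPA, BPF and BPS, against 8.19 FPKM in DMSO. At EB day 20 it was at 20.8, 19.7 and 15.5 FPKM, against 9.31 FPKM in DMSO. The groups did not overlap on either day. At EB day 9 they overlapped, with 2.44, 2.26 and 2.06 FPKM with bisphenols and 2.44 FPKM in DMSO. In NPCs the 4 libraries lay between 3.37 and 3.87 FPKM.

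Counting the members whose 3 bisphenol libraries all lay on one side of DMSO gives the following by stage. At EB day 6 there were 3 of 9 above (29.6% of all genes tested) and 3 below (26.7%). Those above were Shh, Corin and Foxa1, and those below Lmx1a, En1 and En2. At EB day 9 there were 5 above (33.1%), the 3 picked genes with Lmx1b and Foxa1, and 0 below (27.4%). All 9 were above at EB day 12 (32.6%, with 35.1% below), and at EB day 20 all but En2 (33.0%, with 35.0% below). RA EBs had 0 above (23.3%) and 4 below (37.5%), namely Shh, Foxa1, En1 and En2. NPCs had 1 above, Lmx1b (29.1%), and 3 below (24.6%), which were Lmx1a, Foxa1 and En1. The orders of Corin at EB day 6 and of Lmx1a in NPCs rest on few reads, with 3 counts each in DMSO. These counts include the 3 genes picked for their rise. Because of that choice, the counts above DMSO in EBs cannot be read as an excess over the shares of all genes. Each stage's 3 ratios share 1 DMSO library.

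Bisphenols were compared with DMSO over the 16 libraries of EB days 6 to 20 to ask which members moved with treatment in the global branch. Of the 6 members tested, 2 were called higher (8.67% of 14872 genes) and 0 lower (9.06%). In edgeR's quasi-likelihood test with Benjamini-Hochberg adjustment, Foxa1 rose by a log2 of 1.41 ± 0.14 (adjusted p = 6.4e-05) and Lmx1b by 0.63 ± 0.20 (adjusted p = 0.04). The call of Lmx1b was lost without EB day 9, 12 or 20, at log2 changes of 0.70, 0.52 and 0.44. Lmx1a (0.53 ± 0.18, adjusted p = 0.058 in edgeR) and Nr4a2 (0.46 ± 0.16, adjusted p = 0.066) missed the threshold. Without EB day 6 they were called, at 0.69 and 0.55, and so was En1, at 0.81. With all 4 days En1 was at 0.22 (95% interval -0.33 to 0.77) and En2 at 0.03 (-0.26 to 0.33), neither called. Described without a test, Shh was at 1.45 ± 0.16, Corin at 1.59 ± 0.14 and Ferd3l at 1.54 ± 0.25. These SEs do not allow for the choice of the genes by their rise.

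Over all 8 stages, 1 of the 6 was called higher (1.04% of 15632 genes) and 0 lower (1.69%). That was Foxa1, at 0.87 ± 0.21 (adjusted p = 0.023, edgeR). The call was lost without EB day 6, 9, 12 or 20, with log2 changes of 0.67 to 0.83, and DESeq2 did not make it (0.53).

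The response of the branches was compared by an interaction term, the bisphenol effect in RA EBs and NPCs minus that in EBs of days 6 to 20. Foxa1 was lower by this measure, at -1.80 ± 0.28 (adjusted p = 0.00048, edgeR), the only one of 6 called lower (4.8% of 15084 genes), with 0 higher (3.99%). En1 was at -0.87 (95% interval -1.76 to 0.01, adjusted p = 0.2), and without EB day 6 it was called at -1.47. Lmx1a, Lmx1b, En2 and Nr4a2 lay between -0.78 and -0.24, not called. Shh, described only, was at -1.88 ± 0.35.

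**Figure D2:**
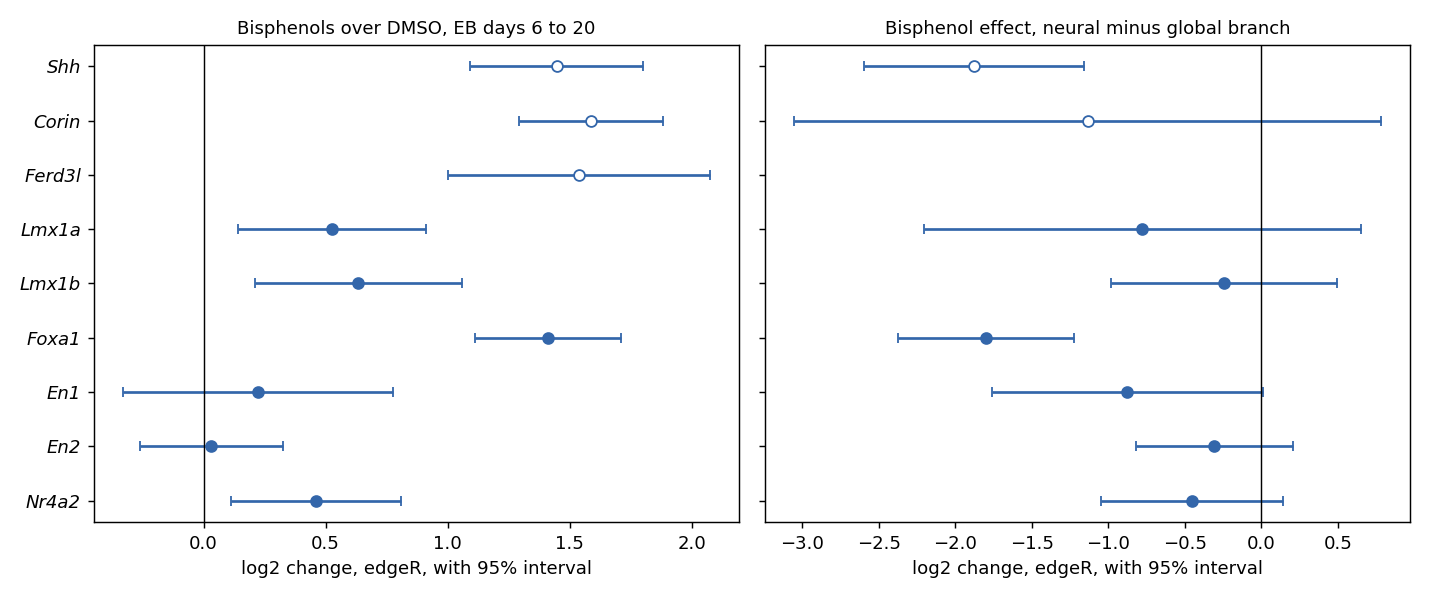
Log2 changes from edgeR with 95% intervals for bisphenols over DMSO in EBs of days 6 to 20 (left) and for the bisphenol effect in the neural minus the global branch (right). Open circles are the genes picked for their rise, which were not tested, and Ferd3l is left out on the right for want of counts. The intervals of the picked genes cannot serve as a test, because these genes were chosen by their rise with bisphenols. The left interval of Foxa1 runs between 1.11 and 1.71 and its right one between -2.38 and -1.23.

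The 3 compounds differ in the bridge between their phenol rings, which is a dimethyl-substituted carbon in BPA, a methylene in BPF and a sulfonyl in BPS. At the matched dose and stages, 3 pairs were compared for 9 members, with p-values adjusted over all genes and the 3 pairs together. No member was called in BPF against BPA (0.0% of all genes), BPS against BPA (0.0064%) or BPS against BPF (0.0%). DESeq2 and limma called 0 members as well. At an unadjusted p under 0.05 edgeR had 336, 1075 and 266 of all genes in these pairs. Among the members, those under that p were Ferd3l and Lmx1a for BPS against BPA and Ferd3l for BPS against BPF.

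Ferd3l, picked for its rise with bisphenols as a class, was at -0.71 in BPS relative to BPA (95% interval -1.30 to -0.13, adjusted p = 1 in edgeR) and at -0.59 in BPS relative to BPF (-1.18 to -0.00, adjusted p = 1). Lmx1a was at -0.37 in BPS relative to BPA (-0.75 to -0.00, adjusted p = 1 in edgeR). For BPF relative to BPA, the log2 changes of the 9 members lay between -0.13 and 0.19, with intervals that reached -0.70 at the low end and 0.66 at the high end. A difference between these compounds inside such intervals could not be detected with 1 library per stage.

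Across stages, the members came on in steps. EB day 6 relative to EB day 4 had 6 of 9 members called higher (10.8% of all genes) and 0 lower (8.75%) in edgeR. En1 rose by a log2 of 6.99 ± 0.43, Foxa1 by 4.70 ± 0.53, Nr4a2 by 2.83 ± 0.39 and En2 by 1.80 ± 0.26. Shh had 2014 counts over the 4 libraries of day 6 and 1 over those of day 4, a ratio of 1910 (95% counting interval 342 to 75400). Lmx1a had 385 and 1, a ratio of 365 (65.0 to 14400). Lmx1b was at 0.75 ± 0.29, short of the size threshold, and Corin at 0.41 ± 0.54.

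EB day 9 relative to EB day 6 had 7 members higher (10.7%) and 1 lower (3.97%). Corin rose by 4.77 ± 0.30, Lmx1a by 2.70 ± 0.20, Foxa1 by 2.51 ± 0.29, En2 by 2.17 ± 0.18, Shh by 1.71 ± 0.24 and Nr4a2 by 1.13 ± 0.24, while En1 was at -1.30 ± 0.27. Ferd3l had 173 counts against 1, a ratio of 176 (31.2 to 6990). Lmx1b was at 0.70 ± 0.26. These intervals of ratios cover counting error only.

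EB day 12 relative to EB day 9 had 2 members higher (7.56%) and 3 lower (2.43%). Corin and Nr4a2 rose, by 2.23 ± 0.18 and 2.27 ± 0.21. Shh (-1.29 ± 0.24), En1 (-1.49 ± 0.29) and Lmx1b (-1.01 ± 0.26) fell, Lmx1b by a value just past the size threshold. With DESeq2 Lmx1b was at -0.99 and not called. En2 (0.73 ± 0.15), Ferd3l (0.46 ± 0.25), Foxa1 (-0.29 ± 0.26) and Lmx1a (-0.01 ± 0.18) were not called.

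EB day 20 relative to EB day 12 had 0 members higher (17.6%) and 4 lower (8.78%), which were Shh (-2.79 ± 0.28), Ferd3l (-1.42 ± 0.27), En2 (-1.40 ± 0.16) and Corin (-1.38 ± 0.18). Lmx1a was at -0.83 ± 0.18 and Foxa1 at -0.54 ± 0.26. Nr4a2, at 0.40 ± 0.18, En1, at 0.12 ± 0.30, and Lmx1b, at -0.26 ± 0.28, were not called either.

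RA EBs of day 8 relative to EBs of day 4 had 5 members higher (19.0%) and 1 lower (15.7%). Foxa1 rose by 6.08 ± 0.48, Nr4a2 by 2.76 ± 0.39 and En2 by 2.37 ± 0.25, while Lmx1b fell, at -1.62 ± 0.35. Shh had 235 counts against 1 (ratio 224, 39.8 to 8890) and Lmx1a 73 against 1 (69.6, 12.1 to 2790). En1 (1.22 ± 0.68) and Corin (-1.09 ± 0.67) were not called, and Ferd3l had 1 count or fewer in both groups.

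NPCs relative to RA EBs had 3 members higher (18.1%) and 2 lower (17.4%). Lmx1b rose by 3.91 ± 0.31, En1 by 3.75 ± 0.39 and Nr4a2 by 1.98 ± 0.23, and Foxa1 (-4.25 ± 0.39) and Lmx1a (-3.13 ± 0.61) fell. En2 (0.44 ± 0.18), Shh (-0.86 ± 0.39) and Corin (0.05 ± 0.80) were not called. Within the LIM homeodomain pair, Lmx1b was thus at its highest and Lmx1a near 0 in the same NPC libraries.

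Near the same age, RA EBs relative to EBs of days 6 and 9 had 0 members higher (8.62%) and 6 lower (10.3%). En1 was at -5.11 ± 0.36, Corin at -3.88 ± 0.46, Shh at -3.82 ± 0.28, Lmx1a at -3.80 ± 0.25 and Lmx1b at -2.71 ± 0.30. Ferd3l had 1 count against 174, a ratio of 0.0115 (0.000289 to 0.0648). Foxa1 was at 0.13 ± 0.24 (95% interval -0.36 to 0.61) and was not called. Its mean of 9.99 FPKM in RA EBs lay between 4.08 FPKM at EB day 6 and 23.6 FPKM at EB day 9. The value near 0 thus comes from averaging those days. En2 (-0.52 ± 0.16) and Nr4a2 (-0.63 ± 0.23) were short of the size threshold.

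NPCs relative to EBs of days 9 and 12 had 1 member higher (16.4%), Lmx1b at 1.35 ± 0.21, and 6 lower (22.4%). Lmx1a was at -8.28 ± 0.35, Corin at -7.32 ± 0.33, Foxa1 at -5.24 ± 0.36, Shh at -4.89 ± 0.31 and En2 at -1.53 ± 0.15. Ferd3l had 1 count against 411, a ratio of 0.00506 (0.000128 to 0.0284). En1 (0.03 ± 0.25) and Nr4a2 (-0.35 ± 0.18) were not called.

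Ordered by mean level over the 4 libraries of a stage, Shh was at 54.5 ± 18.1 FPKM at EB day 9 (SD, n = 4), apart from 23.8 ± 9.60 at EB day 12, which overlapped with 16.9 ± 8.34 at EB day 6. Corin was at 20.8 ± 9.31 FPKM at EB day 12, overlapping with 8.65 ± 3.56 at EB day 20. Foxa1 was at 23.6 ± 7.14, 20.2 ± 7.55 and 15.4 ± 7.15 FPKM at EB days 9, 12 and 20, which overlapped, as the last did with 9.99 ± 1.75 in RA EBs. These SDs include the difference between treatments.

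Related genes were followed through lists, in the same comparison of bisphenols with DMSO over EB days 6 to 20 and with edgeR's test. Of 12 other floor plate genes 6 were higher and 0 lower, with a median log2 change of 0.45 against -0.03 for all genes. Of all genes, 8.67% were called higher and 9.06% lower in this comparison, and 3.99% higher and 4.8% lower in the branch comparison, and the counts of the lists are to be read against these shares. A count of 1 in a list of this size is near them. Slit3 (1.10 ± 0.13), Slit2 (1.05 ± 0.15), which repel axons at the midline, the heparan sulfatase Sulf1 (0.98 ± 0.18) and the forkhead factor Foxa2 (0.79 ± 0.18) had the largest changes. The count was 3 without EB day 12 and 4 without EB day 9 or EB day 20. Sulf1 at EB day 12 lay between 93.3 and 119 FPKM with bisphenols, against 34.4 FPKM in DMSO. In the branch comparison 3 of the 12 were lower and 0 higher: Sulf1 (-1.55 ± 0.28), Slit3 (-1.35 ± 0.22) and Slit2 (-1.16 ± 0.20).

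Of 17 hedgehog pathway genes 1 was higher and 3 lower, with a median of -0.01. The receptor and target gene Ptch1 rose by 0.65 ± 0.13, lying between 63.3 and 73.7 FPKM with bisphenols at EB day 6, against 26.7 FPKM in DMSO. The transcription factors Gli3 (-0.53 ± 0.08) and Gli2 (-0.38 ± 0.08) and the endocytic receptor Lrp2 (-0.60 ± 0.11) were lower. The 3 became 2 without EB day 9 or EB day 12 and 5 without EB day 20. In the branch comparison Gli3 was higher (0.56 ± 0.14) and no other was called. There were 0 calls without EB day 9, RA EBs or NPCs and with limma, and 3 higher and 1 lower without EB day 20.

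Of 13 midbrain dopaminergic genes 1 was higher and 1 lower, with a median of 0.26. The summed level of the 15 listed was between 163 and 225 FPKM with bisphenols at EB day 9, against 250 FPKM in DMSO. At EB day 12 it was between 272 and 363 FPKM, against 393 FPKM in DMSO. By EB day 20 the order was the opposite, between 158 and 169 FPKM with bisphenols and 133 FPKM in DMSO. The groups overlapped at EB day 6. Aldh1a1, an aldehyde dehydrogenase of dopaminergic neurons, rose by 2.58 ± 0.58, lying between 14.4 and 17.5 FPKM with bisphenols at EB day 20, against 0.96 FPKM in DMSO. The forebrain and midbrain factor Otx2 was at -0.42 ± 0.11. Neither was called without EB day 12, and 3 were higher without EB day 9 or with no filter on low counts. There were 0 higher with DESeq2, with limma, with a filter of 5 CPM and without EB day 20. The branch comparison had them in the opposite directions, Aldh1a1 at -2.95 ± 0.68 and Otx2 at 1.32 ± 0.41. There were 0 calls in it without EB day 20 or RA EBs, 0 lower with DESeq2 or limma, and 0 higher without EB day 9, EB day 12 or NPCs. Of 12 isthmic genes 2 were higher and 3 lower, with a median of -0.30. Pax8 (-1.06 ± 0.26), Sp8 (-0.78 ± 0.12) and Wnt1 (-0.66 ± 0.21) were lower and the FGF antagonist Spry1 (0.62 ± 0.17) higher. Without EB day 9 or EB day 12 there were 0 higher and 1 lower. In the branch comparison Sp8 was at 0.66 ± 0.17 and Spry1 at -1.08 ± 0.25, with 0 calls without RA EBs or NPCs and 0 higher without EB day 12 or with limma.

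Of 10 roof plate and dorsal genes 1 was higher and 5 lower, with a median of -0.90. Gdf7 (-1.10 ± 0.34), Zic1 (-0.92 ± 0.14), Rspo1 (-0.92 ± 0.24) and Wnt3a (-0.88 ± 0.29) had the largest changes among those lower. The 5 became 1 without EB day 9 or EB day 12 and 7 without EB day 20. The count was 4 with DESeq2 or a filter of 5 CPM, 3 with no filter on low counts and 2 with limma on log2 FPKM. The summed level of the 10 genes at EB day 9 was between 68.9 and 85.5 FPKM with bisphenols, against 130.01 FPKM in DMSO. By EB day 20 it was between 48.8 and 53.6 FPKM with bisphenols, against 42.1 FPKM in DMSO, so that the order was the opposite. EB day 6 had between 48.2 and 52.5 FPKM with bisphenols and 48.1 FPKM in DMSO. Of 8 neural progenitor and neuron genes 0 were higher and 5 lower, with Pax6 (-1.26 ± 0.13), Sox1 (-0.68 ± 0.10), Dcx (-0.52 ± 0.07) and Tubb3 (-0.42 ± 0.11) leading. The count of 5 was 3 with limma on log2(FPKM + 0.1). It was 4 without EB day 9 or EB day 12 and 7 without EB day 20. The sum of the 8 at EB day 9 was between 263 and 342 FPKM with bisphenols, against 474 FPKM in DMSO, and at EB day 20 it overlapped, between 922 and 1074 FPKM with bisphenols and 1032 FPKM in DMSO. Pax6, Sox1 and Sox2 were higher in the branch comparison, at 1.53 ± 0.18, 0.995 ± 0.18 and 0.54 ± 0.11. These 3 calls of the list became 5 without EB day 20. Zic1 was called higher there at 0.84 ± 0.22, a list count of 1 that was 0 without EB day 9, EB day 12, RA EBs or NPCs and with limma.

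Markers of other cell types that express some members were followed in the same way. Of 4 notochord and node genes tested 2 were higher and 0 lower, T (brachyury) by 1.82 ± 0.25 and Foxj1 by 0.95 ± 0.21. The summed level of the 5 listed was between 73.4 and 86.9 FPKM with bisphenols at EB day 6, against 29.8 FPKM in DMSO. By EB day 12 it was between 15.1 and 22.2 FPKM with bisphenols, against 11.6 FPKM in DMSO. The notochord factor Noto was at 0 in all 4 libraries of EB day 12, but not in all those of EB days 6, 9 and 20. With no filter on low counts, 3 of the 5 listed were called higher. Of 11 endoderm genes 2 were higher and 0 lower, Cer1 by 2.99 ± 0.31 and Gata6 by 1.23 ± 0.35. Their sum was between 86.4 and 142.5 FPKM with bisphenols at EB day 6, against 34.0 FPKM in DMSO (2 called became 0 without EB day 6 and 1 without EB day 9 or EB day 12), and at EB day 12 between 23.0 and 282 FPKM, against 17.9 FPKM. On EB day 20 it overlapped, between 56.5 and 222 FPKM with bisphenols and 102 FPKM in DMSO. The part of these cells in the changes of Shh and Foxa1 was not tested. Of 8 serotonergic and hindbrain genes 2 were higher, among them the serotonin transporter Slc6a4 (2.25 ± 0.57), and 0 lower. The 2 became 0 without EB day 12 or with limma on log2(FPKM + 0.1). They became 1 without EB day 20 or with limma on log2(FPKM + 1). Of 6 stem cell genes 1 was lower, Tfcp2l1 (-0.34 ± 0.10), and 0 higher, and none was called without EB day 6, 9 or 12.

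**Figure D3:**
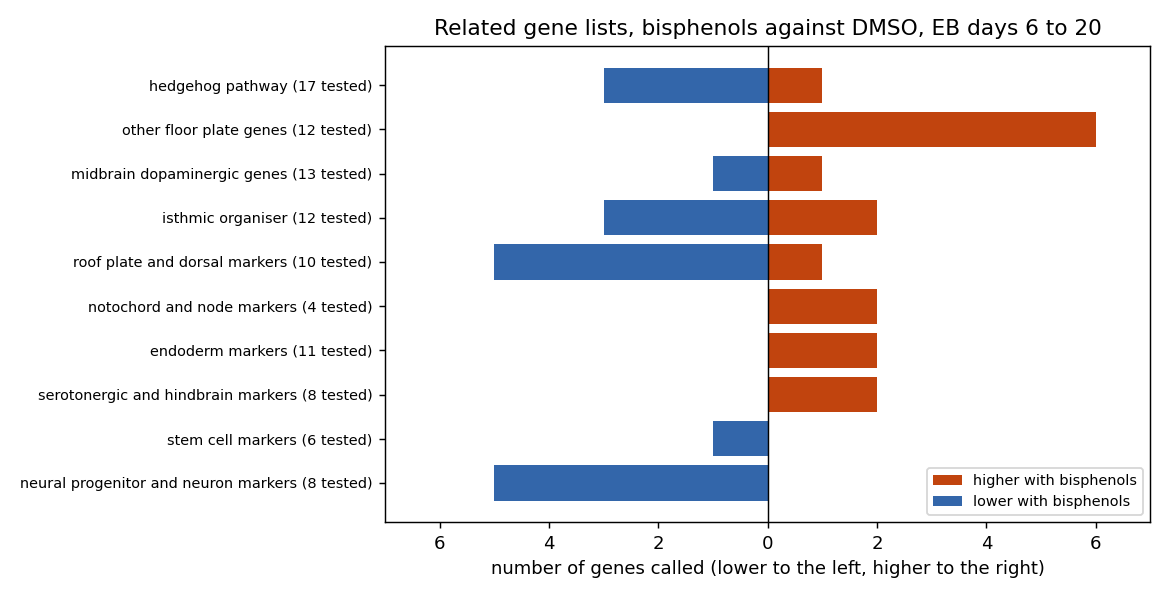
Number of genes called higher (right) and lower (left) with bisphenols than with DMSO over EB days 6 to 20, for each list of related genes, with the number tested in brackets. Floor plate genes were called higher in 6 of 12 and roof plate genes lower in 5 of 10.

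The nearest annotated genes were examined for each member. Twist1, a mesodermal basic helix-loop-helix factor 28.4 kb from Ferd3l, was called higher with bisphenols over EB days 6 to 20, at 1.84 ± 0.21 (adjusted p = 9.8e-05, edgeR). The other neighbour of Ferd3l, Twistnb at 489 kb, was at -0.18 ± 0.08, not called. C130021I20Rik, a noncoding RNA that overlaps Lmx1b by 15 bases, was higher by 1.03 ± 0.21, and Ttc6, which overlaps Foxa1 by 1325 bases, by 0.86 ± 0.19. Whether counting used strand is not given in the sources used here, so reads of overlapping genes cannot be told apart. Ttc6 reached at most 0.84 FPKM. Insig1, 87.0 kb from En2, and Rbm33, 37.6 kb from Shh, were called lower, at -0.19 ± 0.06 and -0.18 ± 0.06.

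The genes most alike in pattern, by Pearson r of log2(FPKM + 0.1) over the 32 libraries, are given as description, since libraries share stages. For Shh they were Bmp5 (0.97), Frem1 (0.962) and Pappa (0.962). For Corin they included Hand2os1 (0.961) and Jhy (0.957), and for Ferd3l Hlf (0.953) and Jhy (0.941). Jhy was thus shared by Corin and Ferd3l, whose own r was 0.969. Lmx1a was most like Dmrta2 (0.981), Pdlim4 (0.968) and Tmem43 (0.967), and Foxa1 like Fgfrl1 (0.964), Capn6 (0.963) and Sppl2a (0.962). Nr4a2 was most like Gnb2 (0.965), Cacna1g (0.959) and Gdpd2 (0.957), and En1 like Nog (0.915), Pcdh7 (0.912) and Lgi1 (0.908). En2 was most like Slc2a4 (0.926), Tmem218 (0.896) and Zfpm1 (0.891). Lmx1b had the lowest values, Rbm20 (0.79), Trim8 (0.766) and its overlapping neighbour C130021I20Rik (0.757), and its r with Lmx1a was 0.154.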

How the data were processed

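RNA-seq tables of 32 libraries were used, 1 file per library. Per the file headers the authors deposited expected counts, which are estimated reads per gene, and FPKM values, which are scaled by gene length and library total. Per the submitters' processing notes, the build was mm10 and the tools included RSEM, HISAT and Bowtie2, for which no role or version is given. Genes not listed in a library were set to 0. Expected counts were rounded and tested with edgeR 4.0.16 (quasi-likelihood, TMM factors 0.923 to 1.14) in R 4.3.3, for genes with 1 CPM or more in at least 4 libraries, with stage and treatment as additive terms. No treatment is repeated within a stage, so the residual degrees of freedom were 21 over all stages, 9 in the global branch and 16 for the branch comparison. Alternatives were DESeq2 1.42.0, other filters and size factors, limma 3.58.1 on log2(FPKM + 1) or log2(FPKM + 0.1), and leaving out each stage (in comparisons of treatments) or each treatment (in comparisons of stages).

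The 9 members and the gene lists were chosen with earlier results of these data known, so none gives independent support. From each list up to 4 called genes with the largest changes were named, and for each member the 3 genes most alike in pattern and its nearest annotated neighbours. Some genes that this rule names are not reported here. Of 20612 genes, 20551 were matched to the annotation by identifier and 9 by transcript, and 52 were not matched. Promoters came from RefSeq. Comparisons of bisphenols with DMSO share the DMSO libraries, of which each stage has 1.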

Additional observations from a re-analysis of the deposited data

Results flagged for a closer look

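In 10 of 70 groups of 4 libraries with any value, 1 library stood apart from the other 3 by Dixon's criterion. Its nominal rate of about 1 of 20 groups assumes continuous, unselected values, so the 10 cannot be set against it. A single count with none in the other libraries always meets the criterion. In 5 of the 10 the highest count was at least 10. The DMSO library was the one apart in all 5, but Shh and Corin had been chosen by their difference from DMSO, so their values are description only. Shh at EB day 12 was at 9.5 FPKM in DMSO, with the bisphenol libraries between 27.1 and 30.4 FPKM. Corin at EB day 9 was at 1.47 FPKM in DMSO, with the others between 5.05 and 5.55 FPKM. En1 was at 1.96 FPKM in the DMSO library of EB day 12, with the others between 5.24 and 5.45 FPKM, and at 9.20 FPKM in that of NPCs, with the others between 6.14 and 6.63 FPKM. En2 at EB day 6 was at 0.91 FPKM in DMSO, with the others between 0.60 and 0.64 FPKM.

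The other 5 rest on few reads. Shh was at 0.04 FPKM in the BPS library of EB day 4, on a single count, with the others at 0. Ferd3l was at 0.11 FPKM in the BPF library of EB day 6, at 0.11 FPKM in the BPA library of RA EBs and at 0.12 FPKM in the BPF library of NPCs, each on a single count, with the others at 0. Foxa1 in ESCs was at 0.03 FPKM with BPA and between 0.20 and 0.23 FPKM in the others.

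The bisphenol effect on Foxa1 differed between the branches in the test of that difference, at -1.80 (log2, neural minus global). For 4 other members all 3 bisphenol libraries lay below DMSO at one of the 6 later stages and above it at another, a difference that was not tested between these stages. The mean bisphenol level of Shh was 0.56 times that of DMSO in RA EBs and 4.42 times at EB day 6. That of Lmx1a was 0.444 times DMSO in NPCs, on few reads, and 2.26 times at EB day 20. That of En1 was 0.446 times DMSO in RA EBs and 2.74 times at EB day 12. That of En2 was 0.681 times DMSO at EB day 6 and 1.15 times at EB day 12.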

How the results depend on the processing

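No paired analysis was possible because the labels give no replicate numbers that pair libraries beyond their stage, which is already a term of the fits that compare treatments. Over 107 log2 changes of members, 1220 recomputed values gave 1109 of the same direction and call, 26 that lost the call, 8 that gained it and 77 of the opposite sign. Depth limits Ferd3l outside EB days 9 to 20, and Shh and Lmx1a at EB day 4, to single reads. One DMSO library per stage carries every difference from DMSO. For bisphenols against DMSO over 8 stages the 1 member called became 0 with DESeq2, 0 with limma on log2(FPKM + 1), 0 with limma on log2(FPKM + 0.1) and 0 to 1 when a stage was left out. Over EB days 6 to 20 the 2 called became 1 to 5 on leaving one out. For the branch difference the 1 called became 2 with limma on log2(FPKM + 0.1) and 1 to 2 on leaving one out, and for RA EBs against EB day 4 the 6 became 2 with limma on log2(FPKM + 1). Reasons were not tested.

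Over all genes, 427 calls for the 8 stages became 37 without EB day 12, 42 without EB day 9, 144 without EB day 20, 202 without EB day 6, 1103 without NPCs, and 3 or 13 with limma. Over EB days 6 to 20, 2637 became 798 without EB day 12 and 1100 without EB day 9, and 48.9% of the calls were higher in edgeR against 62.9% and 65.3% in limma. For the branch difference 1326 became 675 without EB day 12, 756 without RA EBs and 508 without NPCs, and 45.4% higher became 25.0% and 23.4% in limma. Between stages limma on log2(FPKM + 1) called fewer, such as 601 against 1561 for EB day 12 against EB day 9. For NPCs against EBs of days 9 and 12 the median of all genes was -0.098 in that fit and -0.162 in limma on log2(FPKM + 0.1), which also gave 0.102 for EB day 20 against EB day 12 and 0.118 for RA EBs against EB day 4.

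The opposite signs all belong to values not called. For Lmx1a at EB day 12 against EB day 9 they were 0.027 in DESeq2, 0.011 with RLE factors, 0.010 with no filter, 0.037 with 5 CPM and 0.006 and 0.003 in limma, and leaving one out gave -0.132 to 0.147. For Corin in NPCs against RA EBs they were -0.007 and -0.042 in limma, with -0.193 to 0.341 on leaving one out. Foxa1 in RA EBs against EBs of days 6 and 9 ranged from -0.268 to 0.317. En1 in NPCs against EBs of days 9 and 12 was -0.006 with 5 CPM and -0.050 and -0.024 in limma, and ranged from -0.273 to 0.186. For bisphenols against DMSO over 8 stages, En1 ranged from -0.149 to 0.296, and En2 was 0.002 in limma with 1 and ranged from -0.076 to 0.044. Over EB days 6 to 20, En2 was -0.001 in limma with 0.1 and ranged from -0.057 to 0.152.

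For BPF against BPA, DESeq2 gave 0.099 for Corin, 0.003 for En1 and 0.051 for Nr4a2. Limma with 0.1 gave 0.089 for Corin, 0.099 for Ferd3l, 0.039 for Lmx1b, 0.036 for En1 and 0.246 for Nr4a2. Nr4a2 was 0.002 with 5 CPM and 0.009 in limma with 1. Leaving one out gave -0.108 to 0.062 for Shh, -0.113 to 0.083 for Corin, -0.373 to 0.215 for Ferd3l, -0.088 to 0.069 for En1 and -0.062 to 0.036 for Nr4a2. For BPS against BPA, DESeq2 gave 0.040 for Corin and 0.072 for En1. Limma with 1 gave 0.017 for Lmx1b and 0.001 for En1, and with 0.1 it gave 0.041 for Corin, 0.078 for Lmx1b, 0.016 for En1 and 0.007 for Nr4a2. Leaving one out gave -0.192 to 0.059 for Shh, -0.286 to 0.060 for Corin, -0.217 to 0.064 for Lmx1b, -0.062 to 0.122 for Foxa1 and -0.171 to 0.161 for En1. For BPS against BPF, limma with 0.1 gave 0.030 for Shh, 0.001 for Lmx1a and -0.021 for En1, and leaving one out gave -0.059 to 0.126 for Lmx1b and -0.084 to 0.160 for En1.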
